A study of Mus musculus with 11 samples.

Results

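The clustered protocadherin genes lie on mouse chromosome 18, and their DNA methylation was examined in the interval chr18:37080001-38010000 (mm9), which holds the Pcdha, Pcdhb and Pcdhg clusters. CpGs of this 930 kb were taken from all 11 libraries, and reads were summed over 500-bp tiles. A tile belonged to the set when at least 3 of its CpGs were listed in every library. This gave 109 tiles of 127965 such tiles in the genome, and 5.86% of the 1860 tiles that the interval can hold. The tiles were chosen by position and by this listing of their CpGs, and no methylation value entered the rule. Earlier results of these data were known when the tiles were chosen.

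Clustered protocadherins are cadherin-like adhesion proteins of the cell surface, known best from neurons, where each cell uses its own combination of them. In the Pcdha and Pcdhg clusters every variable first exon has its own promoter and is spliced to constant exons shared by the whole cluster, whereas Pcdhb genes consist of a single coding exon. Promoter choice involves the factor CTCF, cohesin and DNA methylation, and methylated protocadherin promoters are typically silent. The RefSeq table of GRCm38 lists 14 Pcdha, 22 Pcdhb and 22 Pcdhg genes, in that order along the chromosome. Gene models on mm9 were not used here, so first exons and constant exons were not told apart. Levels are given by position in the interval and not by exon, gene or cluster.

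The cells were ER-Hoxa9-Lys-GFP cells of C57BL/6 origin, a mouse myeloid progenitor line whose Hoxa9 is fused to a hormone-binding domain, so that estradiol keeps Hoxa9 working and its removal lets the cells differentiate. All groups carried this fusion and the lysozyme GFP reporter, and all were grown in medium with conditioned stem cell factor. One library came from cells kept in estradiol throughout. Pairs of libraries came from cells left without estradiol for 24, 40, 56 or 72 h followed by 96, 80, 64 or 48 h back in estradiol, and 2 further libraries from cells left without it for 120 h and never returned. Among all cells left without estradiol a longer absence therefore went with a shorter return or none, and absence and return cannot be told apart. Whether replicates were separate cultures is not stated in the labels, so the spread between them may be technical, and whether the line is 1 clone is not given in the sources used here. Cell identity was not checked, because RRBS (reduced representation bisulfite sequencing, which reads CpG-rich restriction fragments) measures no expression.

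Within the interval 921 CpGs were listed in at least 1 library and 739 in all 11. A library listed 834 to 914 of them, with 4632 to 28248 CpG-read observations, that is, reads summed over CpGs. The median listed CpG had 5 reads in the shallowest library (40 h replicate 1) and 27 in the deepest (120 h replicate 1), out of 8234933 to 46899896 observations in a whole library. The 40 h and 56 h libraries were the shallowest and the 24 h replicate 2 and 120 h libraries among the deepest, so values of the former carry wider counting errors. Of the 109 tiles, 59 had at least 20 observations in every library and were tested, and the other 50 are given as levels only.

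The interval was highly methylated in every library. Averaged over the 11 libraries, the median tile was 95.3% methylated, with quartiles of 90.6% and 97.4%. Tiles above 80% made up 96 of 109 (88.1%), and 12 lay between 20% and 80%. A single tile lay below 20%. Among the 59 tiles with enough reads, 53 were above 80%, 5 were in the middle class and 1 was low, and in 34 of them every library was above 90%. Single CpGs gave the same picture: of the 739 CpGs, 636 (86.1%) were above 80% in pooled reads, 71 (9.61%) were at 20 to 80%, and 32 (4.33%) were below 20%. Of those 32, 21 lay in the single low tile and 11 elsewhere.

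**Figure D1:**
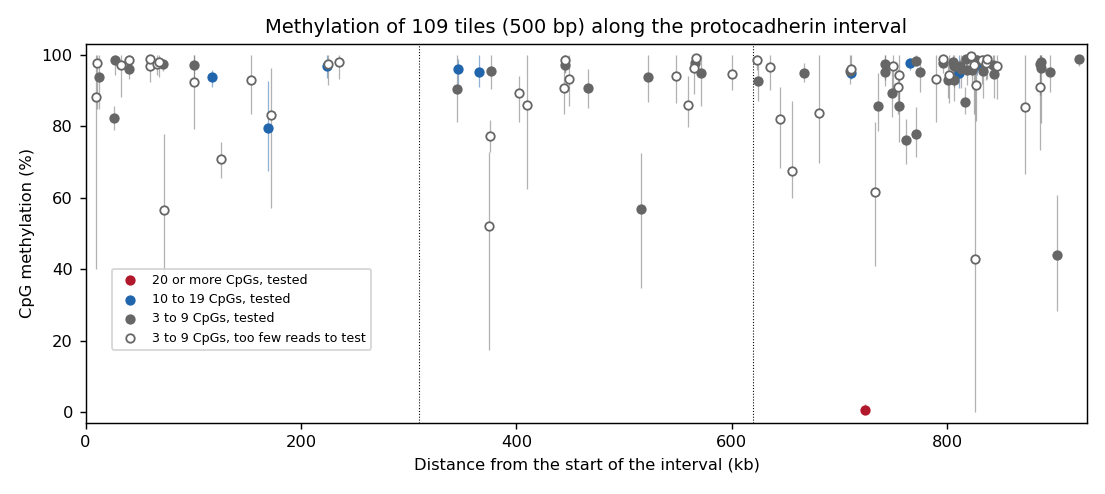
Mean methylation of the 109 tiles (y axis, %) against distance from the start of the interval (x axis, kb). Points are means over 11 libraries, vertical lines run from the lowest to the highest library, open points had too few reads to test, and dotted lines divide the interval into 3 equal stretches. Tiles sit near the top along the whole interval, with 1 CpG-dense tile near 0.

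This level stood above that of the rest of the genome measured in the same way. Among the 71183 other tiles with enough reads, the median was 90.3%, 61.0% of tiles were above 80% and 27.2% were below 20%, compared with 89.8% and 1.69% of the protocadherin tiles. The neighbouring stretches of chromosome 18 were less methylated than the interval. In the 930 kb upstream, 50 tiles had a median of 5.1%, and 56.0% of them were below 20%. In the 930 kb downstream, 53 tiles had a median of 68.5%, and 37.7% were below 20%. These are descriptions of levels, with no test, since neighbouring tiles are not independent.

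**Figure D2:**
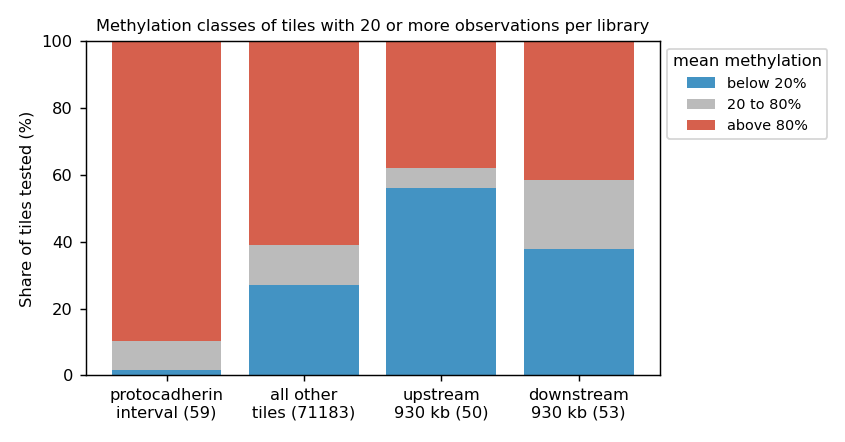
Share of tiles (y axis, %) below 20%, at 20 to 80% and above 80% mean methylation, for the protocadherin interval, all other tiles and the flanking stretches of equal length. Numbers of tiles are in parentheses. The interval has 1.69% low tiles, against 56.0% upstream and 37.7% downstream.

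CpG density differed between the interval and the rest of the genome, and the levels were therefore set side by side by density. Of the 59 tiles, 49 (83.1%) were sparse (3 to 9 CpGs), 9 (15.3%) had 10 to 19 CpGs and 1 (1.69%) was dense (20 or more CpGs). Elsewhere these shares were 64.3%, 23.8% and 11.9%. At 10 to 19 CpGs the protocadherin tiles had a median of 95.3% and 8 of 9 were above 80%, whereas other tiles of this density had a median of 87.0%, with 53.5% above 80% and 38.2% below 20%. Sparse tiles had a median of 95.6% in the interval (45 of 49 above 80%) and of 92.5% elsewhere (70.7% above 80%). In the genome as a whole, dense tiles were mostly unmethylated, with a median of 0.52%. In the downstream stretch, sparse tiles had a median of 89.0%. Tiles of 10 to 19 CpGs, 30.2% of tiles there, had one of 6.5%. The upstream medians at these densities were 7.58% and 35.3%.

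The 9 tiles of 10 to 19 CpGs included the CpG-richest methylated stretches of the interval. The tile at chr18:37197501-37198000, with 19 CpGs, was 93.8% methylated, and its libraries ran from 90.9% to 95.8%. Further along, the tile at chr18:37790001-37790500, also with 19 CpGs, was at 94.9% (93.2% to 97.4%). At chr18:37845501-37846000, 13 CpGs averaged 97.8% (95.7% to 99.2%). Levels of the tiles starting at 37304001, 37425501, 37445001, 37890501 and 37907001 were 96.7%, 96.1%, 95.3%, 94.8% and 97.0%, and each held 10 or 11 CpGs. The exception was chr18:37249501-37250000, with 15 CpGs at 79.5%, where 56 h replicate 2 was lowest at 67.6% and 56 h replicate 1 highest at 92.6%. This spread between replicates of one group covered all other libraries of that tile.

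The single unmethylated tile was chr18:37803501-37804000, which lay 723.5 kb from the start of the interval and held 21 CpGs, more than any other tile of the set. Its methylation was 0.4% in the library kept in estradiol (272 observations, Wilson 95% interval 0.1% to 2.1%). The 24 h libraries gave 0.5% and 0.9%, the 40 h libraries 0% and 2.2%, and the 56 h libraries 0.4% and 0%. The 72 h libraries gave 0.8% and 0.5%, and the 120 h libraries 0.8% and 0.6%. All libraries were at or below 2.2%, and the mean was 0.63% over 205 to 1659 observations a library. Within the tile 19 of the 21 CpGs were at 0% to 1.0% in pooled reads, and the outermost CpGs on either side were higher, at 3.7% (position 37803589) and 11.4% (position 37803899). The level was thus highest at both edges of the measured stretch. No gene is assigned to this tile here, although Taf7 and Slc25a2, which are not protocadherins, lie between the Pcdhb and Pcdhg clusters in the RefSeq table.

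Of the 12 tiles at 20 to 80%, several mixed CpGs of higher and lower level within the tile and did not hold CpGs of middle level throughout. At chr18:37595501-37596000 the pooled levels of the 4 CpGs were 10.1%, 35.2%, 85.5% and 95.3% in the order of their positions, over 303 to 356 reads each. At chr18:37152501-37153000 the first CpGs were at 72.3% and 72.9% and the last at 18.5% and 10.9%. At chr18:37841501-37842000 the first CpG, at position 37841511, was at 14.3% (294 reads), while the remaining 6 ran from 69.9% to 99.5%. A tile with another pattern was chr18:37812501-37813000, where all 4 CpGs lay between 54.7% and 60.4%. Its libraries ran from 40.9% to 81.2%, with as few as 9 observations.

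In 3 tiles a poorly methylated CpG stood beside a highly methylated one. Position 37205691 was at 11.6% (172 reads, Wilson 95% interval 7.65% to 17.3%), and the CpG 26 bp away at 37205717 was at 89.9%. Position 37455507 was at 27.8% (237 reads), 5 bp from a CpG at 96.8%. Position 37735755 was at 18.1% (155 reads), 25 bp from a CpG at 97.1%. Each low CpG varied between libraries about as much as counting error allows, with chi-square values per degree of freedom from 0.94 to 1.32. Such CpGs, below 50% within 50 bp of one above 80% and with at least 100 reads in all, were 3 of 420 (0.714%) in the interval and 2.43% elsewhere.

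**Figure D3:**
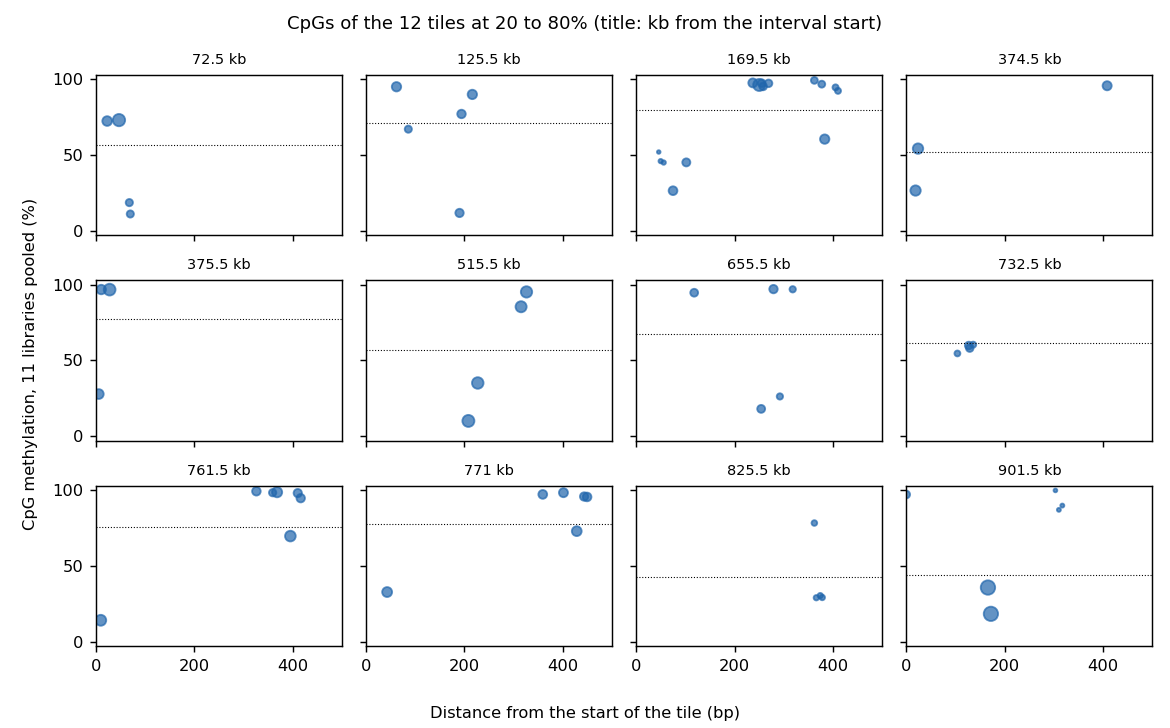
Pooled methylation of single CpGs (y axis, %) in the 12 tiles at 20 to 80%, against distance from the start of the tile (x axis, bp). Point area grows with the reads of the CpG up to a limit, dotted lines are tile means, and titles give the distance of the tile from the start of the interval. Several tiles hold CpGs near 100% and CpGs below 50%, and the tile at 732.5 kb has 4 CpGs near its mean.

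The measured tiles were spread unevenly along the interval, and their levels were similar. The first 310 kb held 24 tiles with a median of 96.7%, of which 3 were in the middle class. The next 310 kb held 22 tiles with a median of 93.8%, again with 3 in the middle class. The last 310 kb held 63 tiles with a median of 95.6%, 6 in the middle class, and the single low tile. This last stretch also held 425 of the 739 CpGs listed in all libraries, against 183 and 131 in the others. The longest run without a measured tile was 109 kb, between the tiles starting at 37315501 and 37424501. Levels inside that gap were not analysed here.

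Mean methylation of the 59 tested tiles moved little with the hours without estradiol. It was 91.6% in the library kept in estradiol, 91.7% ± 0.09 after 24 h, 91.2% ± 0.05 after 40 h, 90.5% ± 0.47 after 56 h, 90.8% ± 0.17 after 72 h and 90.7% ± 0.47 after 120 h (SD, n = 2 each). All 11 libraries lay between 90.2% and 91.8%. Within this range the libraries with estradiol, 24 h and 40 h (at least 91.2%) lay above those of 56, 72 and 120 h (at most 91.0%). Over the 53 tiles above 80% these libraries overlapped, with 40 h replicate 1 at 94.98% and 72 h replicate 1 at 95.16%. Over the 53 tiles above 80% the group means were 95.5% with estradiol, 95.5%, 95.2%, 94.4%, 95.1% and 94.7%. The 43477 tiles above 80% in the whole genome ran from 94.2% with estradiol to 94.1%, 94.1%, 93.9%, 93.8% and 93.8% in the same order. Both sets were highest in the library kept in estradiol or after 24 h. The lowest group among the protocadherin tiles was 56 h, and no p-value was computed for these averages.

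The main comparison was between 120 h and 24 h without estradiol, the longest and the shortest absence among withdrawn cells. These groups also differed in return, since the 24 h cells had 96 h back in estradiol and the 120 h cells were never returned. None of the 59 protocadherin tiles passed an adjusted p of 0.05 in the quasi-binomial model fitted to all tiles, and the smallest adjusted p was 0.686. Of all 71062 tiles tested, 16 passed (0.0225%), 5 higher and 11 lower after 120 h. At an unadjusted p under 0.05, 6 protocadherin tiles (1 higher, 5 lower) were counted, or 10.2%, against 6.82% of all tiles. The protocadherin tiles differed by a median of -0.47 percentage points (all tiles -0.04), and 37 of 59 (62.7%) were lower after 120 h, against 51.4% of all tiles. Differences were within 5 points in 54 of 59 tiles, and in 92.8% of all tiles. The 95% interval of a tile's difference had a median half-width of 3.44 points before adjustment for the number of tiles, and larger differences also missed the adjusted threshold.

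The other comparisons gave no call among the protocadherin tiles either. For 72 h against 24 h, 0 of 59 passed (0.00844% of all tiles, 2 higher and 4 lower), 4 had an unadjusted p under 0.05 (6.89% of all), and the smallest adjusted p was 0.268. For 120 h against 72 h, which sets cells never returned beside cells returned for 48 h, 0 of 59 passed (0% of all tiles), 3 had an unadjusted p under 0.05 (6.18% of all), and the smallest adjusted p was 0.807. For 120 h against the single library kept in estradiol, 0 of 59 passed (0% of all tiles), 1 had an unadjusted p under 0.05 (5.07% of all), and the smallest adjusted p was 0.857. The trend with hours without estradiol over all 11 libraries gave 0 of 59 (0.0211% of all tiles, 4 rising and 11 falling), 5 with an unadjusted p under 0.05 (6.03% of all), and a smallest adjusted p of 0.639. Limma on the logit of the reads called 0 protocadherin tiles and 0 of all tiles in each of the 5 comparisons. The comparisons share control libraries, so their values are not independent of each other.

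**Figure D4:**
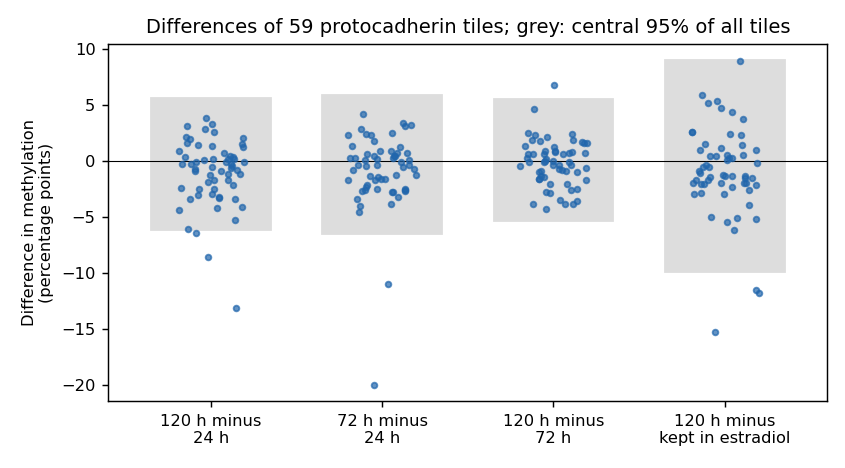
Difference in methylation (y axis, percentage points) of the 59 tested protocadherin tiles in 4 comparisons (x axis). Each point is a tile, and grey boxes span the central 95% of all tiles tested. Most points lie inside the boxes, and the tile at -20.0 points in the comparison of 72 h with 24 h lies furthest out.

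The tile with the largest spread over libraries, at 4.72 chi-square per degree of freedom, was chr18:37981501-37982000, 901.5 kb from the start and near the far end of the interval. Its methylation was 49.2% with estradiol (65 observations, Wilson 95% interval 37.5% to 61.1%). It was 53.8% and 47.9% after 24 h, 60% and 60.7% after 40 h, 39.7% and 36.2% after 56 h, 33.3% and 28.4% after 72 h, and 34.7% and 40.7% after 120 h. The libraries with estradiol, 24 h and 40 h all lay above those of 56, 72 and 120 h. The difference was -20.0 points between 72 h (30.8% ± 3.5) and 24 h (50.8% ± 4.1), with a 95% half-width of 7.78 points and an adjusted p of 0.268. It was -13.1 points between 120 h (37.7% ± 4.3) and 24 h, with an adjusted p of 0.686. Neither passed the threshold.

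The 6 CpGs of that tile differed in level and in depth. Position 37981667, with 624 reads in all, was at 48.3% with estradiol, 45.5% and 39.8% after 24 h, 52.6% and 64.3% after 40 h, 30.8% and 33.3% after 56 h, 30.1% and 27.7% after 72 h, and 30.4% and 33.8% after 120 h. Position 37981673, with 507 reads, was at 30.4% with estradiol, 30.8% and 18.7% after 24 h, 30.8% and 28.6% after 40 h, and between 12.5% and 18% in all 56, 72 and 120 h libraries. The other 4 CpGs were at 87.2% to 100% with 35 to 148 reads each. The CpGs at 37981667 and 37981673 supplied 73.8% and 72.7% of the observations of the tile in the 24 h libraries, 86.3% and 90.3% in the 72 h libraries, and 86.7% and 79.0% in the 120 h libraries, so the mix of CpGs moved with the groups. From these CpGs alone the difference between 72 h and 24 h was -12.6 points (half-width 8.12, unadjusted p 0.0166, adjusted p 0.710, quasi-binomial model over all tiles), and that between 120 h and 24 h was -9.59 points (adjusted p 0.739). With the level expected from each library's mix of CpGs as an offset, the difference between 72 h and 24 h was -9.54 points (adjusted p 0.741). With equal weight for each of the 6 CpGs there was no fall: the difference was 0.42 points between 72 h and 24 h, 0.63 points between 120 h and 24 h, and 10.3 points between 120 h and continuous estradiol (-11.5 points for the summed reads). In that mean the other 4 CpGs, each with as few as 1 read in a library, count as much as the deep ones. With equal weight for only the CpGs at 37981667 and 37981673, these differences were -11.9, -9.16 and -14.8 points in the same order. The fit on those CpGs gave -15.2 points between 120 h and continuous estradiol (half-width 15.2).

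**Figure D5:**
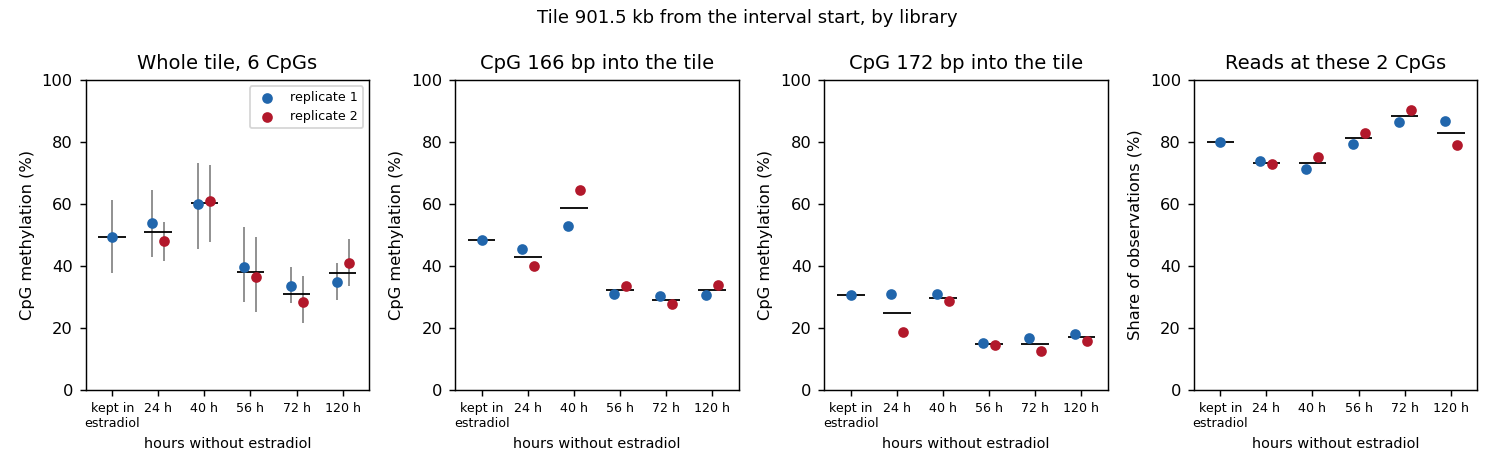
Methylation (y axes, %) of the tile 901.5 kb from the interval start, of its 2 deepest CpGs, and the share of its observations at these CpGs, by hours without estradiol (x axis). Blue and red points are replicates 1 and 2, black lines are group means, and grey lines are Wilson 95% intervals. Both CpGs are lower at 56, 72 and 120 h than with estradiol and at 40 h, and their share of observations is highest at 72 h.

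In tiles of 1000 bp the same place gave the single call among the protocadherin tiles. At chr18:37981001-37982000, with 8 CpGs, the level was 61.4% ± 1.1 after 24 h and 43.4% ± 0.4 after 72 h (SD, n = 2 each), a difference of -18.03 points (half-width 6.86, adjusted p 0.0299). It was 1 of 62 tested protocadherin tiles of that size, and 32 of 68546 tiles in the genome passed (0.0467%), 7 higher and 25 lower. It was 61.2% with estradiol, 70.0% ± 1.5 after 40 h, 49.2% ± 3.0 after 56 h and 51.6% ± 3.5 after 120 h, and 120 h against 24 h gave -9.81 points with an adjusted p of 0.498. With the mix of CpGs as an offset, the call was lost: the difference between 72 h and 24 h was -7.34 points with an adjusted p of 0.765.

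Other tiles with the largest differences are given as values, since none passed the test. The tile at chr18:37595501-37596000 was at 69.2% with estradiol. It was at 72.4% and 52.7% after 24 h, 58.8% and 34.8% after 40 h, 68.4% and 56.5% after 56 h, 52.3% and 50.8% after 72 h, and 49.5% and 58.5% after 120 h. Replicates of one group differed by as much as the groups did. Its difference between 72 h and 24 h was -10.96 points (adjusted p 0.835), and -1.80 points once the mix of CpGs was an offset. Between 120 h and continuous estradiol it was -15.2 points (half-width 18.4, adjusted p 0.857), and -6.88 points with that offset.

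At chr18:37424501-37425000 all 56 observations of the library kept in estradiol were methylated, compared with 89.5% and 87.0% after 120 h. The difference was -11.7 points (half-width 4.89, adjusted p 0.857), and the 24 h libraries of that tile were at 91.4% and 93.8%. This half-width is likely too narrow, since a library without unmethylated observations adds almost no counting error to it. At chr18:37828501-37829000 the level was 90.2% after 24 h and 83.8% after 120 h, a difference of -6.37 points (half-width 6.84, adjusted p 0.724). From CpGs with at least 5 reads in every library it was only -1.20 points. At chr18:37835001-37835500 it was 92.1% after 24 h and 87.6% after 72 h (-4.47 points, half-width 5.52, adjusted p 0.721). The 40 h libraries of that tile were lower still, at 79.4% and 75.5%.

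Among tiles that were higher in the group with the longer absence, the largest differences between 120 h and 24 h were 3.85 points at chr18:37180501-37181000 (adjusted p 0.836), 3.30 points at chr18:37907001-37907500 (94.6% to 97.9%, adjusted p 0.702) and 3.19 points at chr18:37912501-37913000 (adjusted p 0.825). Between 72 h and 24 h they were 4.22 points at chr18:37249501-37250000 (half-width 7.68, adjusted p 0.843) and 3.44 points at chr18:37903001-37903500 (half-width 3.11, adjusted p 0.712). The first of these was 1.81 points with the mix of CpGs as an offset. Between 120 h and 72 h the tile at chr18:37981501-37982000 was 6.86 points higher (half-width 7.13, adjusted p 0.821). Between 120 h and the single library kept in estradiol, differences were 8.96 points at chr18:37912501-37913000, 5.89 points at chr18:37923001-37923500 and 5.43 points at chr18:37815001-37815500 (half-widths 12.9, 11.1 and 13.2, adjusted p 0.857, 0.857 and 0.867). None of these passed the threshold. The steepest slope with hours was upward, 1.33 log odds per 100 h at chr18:37885001-37885500 (adjusted p 0.852). The steepest downward were -1.18 at chr18:37875501-37876000 and -1.13 at chr18:37892501-37893000 (adjusted p 0.743 and 0.639). At 37875501 the level ran from 94.98% to 100% over the libraries, so a slope of that size is a few points.

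Replicates of the protocadherin tiles differed about as much as those of all tiles. The chi-square per degree of freedom between replicates was 1.08, 1.25, 1.54, 1.29 and 1.57 in the 24, 40, 56, 72 and 120 h groups, against 1.44, 1.38, 1.41, 1.58 and 1.44 over all tiles. Over the 11 libraries 11 of 59 tiles (18.6%) had a value above 2, and so did 17.6% of all tiles. Behind the tile at 901.5 kb the largest were chr18:37966501-37967000 (3.38), which was at 81.0% in 56 h replicate 2 and at 93.3% to 100% in the others, and chr18:37595501-37596000 (3.38). The untested tile at chr18:37454501-37455000, with as few as 11 observations, ran from 17.4% to 72.7% between the 40 h replicates alone. The most extreme range, 0% to 100%, was at chr18:37905501-37906000, where the 56 h replicate 1 and estradiol libraries that set it had 4 and 8 observations.

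Among 17 known regulators of protocadherin promoter choice or of DNA methylation, promoters of 4 genes could be placed by the spacing of their CpGs. Listed CpGs matched 9 of 15 in the sequence of Setdb1, 5 of 17 in Tet1, 16 of 22 in Tet3 and 13 of 18 in Dnmt3a. For Tet2 the same rule gave 48 positions, so a single matching position does not secure a placement, least of all with 5 CpGs. The Setdb1 promoter, of a histone methyltransferase that acts at silent chromatin, was at 0% to 2.5% over the libraries. That of Tet1, an enzyme that oxidises methylated cytosine, was at 0% to 20.3%, and that of Tet3, a related enzyme, at 19.6% to 50.8%. For Dnmt3a, a methyltransferase that sets new methylation, 1 of its promoters was placed and was at 21.7% to 44.7%. None of the 4 passed the test in any comparison (smallest adjusted p 0.609), and the promoters of the other 13 genes were not analysed here.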

How the data were processed

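RRBS was carried out on 11 libraries, grouped by the treatment given in the labels. The deposited files hold, for each CpG, methylated and total read counts and a score that equalled 1000 times the methylated share in 100% of lines, and the counts were used. The genome build was mm9, per the submitters' processing notes. The aligner, caller and handling of PCR duplicates are not given in the sources used here. Wilson intervals cover counting error only and may be too narrow, since PCR reads are not independent molecules and a read spanning several CpGs counts at each. Half-widths of differences also use the moderated spread between libraries.

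CpGs of chromosomes 1 to 19 and X listed in all 11 libraries were grouped in 500-bp tiles of at least 3 CpGs and at least 20 observations in every library. Each of 71062 tiles with reads of both kinds went into a quasi-binomial logistic model with all libraries in 1 fit. Two-sided deviance F tests used a dispersion moderated across tiles as in limma 3.58.1 (largest relative difference 6.8e-16) and not below 1, with Benjamini-Hochberg adjustment over all tiles and a threshold of 0.05. The method was tested on simulated data with large changes in tiles of middle level. That simulation does not show whether small changes in highly methylated tiles would be found. The single estradiol library was taken to vary like the other groups. Differences are between means of library percentages, whereas half-widths and p-values come from the reads pooled in each group, so they can disagree. Whether libraries of one replicate number were paired was not settled. For each group the difference between its replicates was taken per tile. The 10 correlations of these differences between groups were all weakly positive, from 0.0002 to 0.026. Counting error within each tile weakens such correlations, so they cannot decide the question.

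Named tiles were, for each comparison, the 3 with the largest difference each way where none passed, the CpG-rich tiles and the 5 with the largest spread over libraries. Other tiles, chosen after their values were seen, are the 3 holding an isolated low CpG and those at 20 to 80%. A promoter of the listed regulators was placed only where at least 5 listed CpGs matched the CpG spacing of its RefSeq sequence (GRCm38.p6) at 1 position of its chromosome. Tiles and lists were chosen with earlier results of these data known. The offset for the mix of CpGs within a tile, and the fit on the 2 deepest CpGs and the equal weighting of CpGs in 1 tile, were added after the data were seen. The software was Python 3.11.15, numpy 2.4.6 and scipy 1.17.1.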

Additional observations from a re-analysis of the deposited data

How the results depend on the processing

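Of 78 refits of the 5 comparisons, 1 called a protocadherin tile: 1000-bp tiles for 72 h against 24 h (1 tile, adjusted p 0.0299). That tile was not called with the mix of CpGs as an offset, an alternative chosen after seeing the data. Of 366 values of named tiles under all settings but the offset and the fit on single CpGs, 364 kept their direction. This count is no measure of robustness. Limma, the dispersion limit, the replicate number as a block, the libraries compared and the minimum of observations leave a difference between groups unchanged. The tiles were also chosen for large differences in these data. The tile starting at 37595501 gave 1.34 points for 120 h against 24 h without 24 h replicate 1 and -18.4 points without 24 h replicate 2. The tile starting at 37828501 gave 0.13 points for 120 h against 72 h with at least 5 reads per CpG. The median level of the protocadherin tiles was 96.1% with at least 50 observations per library, against 95.5%.

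Counts of calls over the whole genome moved more, and the cause was not tested. For 120 h against 24 h the count was 16, and it was 2 with at least 50 observations, 4 with at least 5 reads per CpG, 41 in 1000-bp tiles, 0 with limma, 127 with only the libraries compared and 34 in 1000-bp tiles with the offset. For 72 h against 24 h it was 6, and 1, 1, 32, 0, 76 and 23 in the same order. For 120 h against 72 h it was 0, and it was 5 in 1000-bp tiles, 25 with only the libraries compared and 1 in 1000-bp tiles with the offset. For 120 h against continuous estradiol it was 0, and it was 9 in 1000-bp tiles, 1 without the lower limit of the dispersion, 1 with only the libraries compared, 3 with the offset and 6 in 1000-bp tiles with the offset. For the trend it was 15, and it was 2 with at least 50 observations, 23 with no minimum, 9 with at least 5 reads per CpG, 35 in 1000-bp tiles, 0 with limma and 25 in 1000-bp tiles with the offset. Leaving out 1 library at a time gave 0 to 2 calls for 120 h against 24 h, 0 to 1 for 72 h against 24 h and 2 to 21 for the trend, and no protocadherin tile in any comparison.

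The replicate number as a block (replicate block) took the calls for 120 h against 24 h, for 72 h against 24 h and for the trend to 0 and called no protocadherin tile. The labels link libraries only by that number, and the block was not possible against the single estradiol library. Depth limits single tiles: 50 of the 109 tiles were not tested, and the intervals of the others were several points wide.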
